A study of Mus musculus with 24 samples.

Results

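The tissue differences that remained when Prdm6 was deleted were described from 10 libraries, 5 of Prdm6-deficient ductus arteriosus (DA, replicates 1, 2, 5, 6 and 7) and 5 of Prdm6-deficient ascending aorta (replicates 1 to 5), over all genes with enough reads to be tested. These are 10 of the 23 libraries with values in the series, chosen by genotype alone, and the other 13 are 7 control DA and 6 control aorta libraries. All vessels were microdissected from E18.5 embryos on a C57BL/6 background and profiled by low-input RNA-Seq. Prdm6-deficient embryos were Wnt1Cre;PRDM6f/f, so that Cre deletes the floxed Prdm6 alleles in neural crest derivatives and not in the endothelium, blood or other cells of the same dissected piece. Control embryos were PRDM6wt/f without Cre, except that control DA replicate 3 was PRDM6wt/wt and that control DA replicate 2 and control aorta replicate 3, both from 1 embryo, were Wnt1Cre;PRDM6wt/wt. Each of Prdm6-deficient DA replicates 1 and 2 pooled vessels from 2 embryos, and replicate 4 of that group was not analysed here. Per the labels, DA samples gave 20 to 59 ng of total RNA and aorta samples 94 to 210 ng, so input differed between the tissues and its part in the results was not tested.

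The DA is the fetal vessel that shunts blood from the pulmonary artery to the aorta and closes after birth by contraction of its smooth muscle. Smooth muscle cells of the DA and of the ascending aorta both descend largely from cardiac neural crest, yet the vessels arise at different levels of the pharyngeal arches, and the DA wall is the more muscular of the pair. Prdm6 is a PR domain protein of smooth muscle that the authors describe as a putative methyltransferase. How it changes transcription is, in their words, unclear. Genes that mark position along the body axis, such as the Hox genes, and genes that mark mature contractile muscle, such as those driven by serum response factor (Srf), are therefore separate ways in which these vessels can differ.

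Each of the 10 libraries held between 16945199 and 22318845 counts assigned to genes, and 3 counts, taken as the smallest detectable number, stood for 0.137 to 0.187 CPM, which are read counts divided by the TMM-adjusted library size, a limit that covers counting error only. The summed CPM of 8 smooth muscle markers was 9956 to 12161 CPM in the DA and 9594 to 11309 CPM in the aorta of deficient embryos, so the labelled vessels held muscle in every library. Prdm6 itself (ENSMUSG00000069378.13, chr18:53463583-53575907) measured 78.1, 70.8, 77.7, 78.5 and 58.7 CPM in Prdm6-deficient DA and 69.6, 70.1, 68.5, 81.2 and 61.9 CPM in Prdm6-deficient aorta, against a range of 85.0 to 128 CPM in the DA and 95.6 to 136 CPM in the aorta of controls. The deficient groups overlapped each other, with a log2 fold change of DA against aorta of 0.05 ± 0.12, edgeR adjusted p = 0.96, and every deficient library lay below every control library. Here and below, ± after a log2 fold change is its standard error, and fold changes, errors and p-values are from 1 edgeR quasi-likelihood fit over all 23 libraries with Benjamini-Hochberg adjustment over 16463 genes. Library values are listed in the order of the replicate numbers, and gene positions are on mm10. The count sums the whole gene and does not separate the floxed exons. Prdm6-deficient DA replicate 1 held the most erythroid marker counts of the 10 (137751 CPM over 8 genes), and replicates 2, 6 and 7 held more mesothelial marker counts than the other deficient libraries. In bulk RNA, fewer cells of a type and less RNA per cell cannot be told apart.

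Between Prdm6-deficient DA and Prdm6-deficient aorta, 44 of 16463 genes (0.267%) met the rule for a call, an edgeR adjusted p under 0.01 together with a log2 fold change larger than 0.5 in size, 25 of them higher in the DA (0.152%) and 19 lower (0.115%). Among them, Hoxa5, Hoxb4, Six2 and Sox9 stayed higher in the DA and the chemokine gene Cxcl12 stayed lower. Six2 and Sox9 were the 2 called members of a list of 44 tested pharyngeal arch and neural crest transcription factors. By sign, 29 of that list were lower and 15 higher in deficient DA (median log2 fold change -0.13). The same rule called 882 genes between control DA and control aorta (5.36%), 521 higher in the DA and 361 lower. The standard error of the log2 fold change had a median of 0.205 in the deficient comparison (5 against 5 libraries) and one of 0.181 in the control comparison (7 against 6), so the deficient comparison was somewhat less precise. Without a p threshold, 377 of the 12979 genes that averaged 1 or more on the log2 CPM scale (2.91%) lay beyond a log2 fold change of 1 in deficient vessels, compared with 732 (5.64%) in control vessels. The number called in deficient vessels depended on the test and the libraries. DESeq2 called 137, limma-voom 65, and edgeR without the pooled libraries 15. Of the 44 genes, 43 did not overlap between the 5 and 5 libraries, as did 580 of all tested genes (3.52%).

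**Figure D1:**
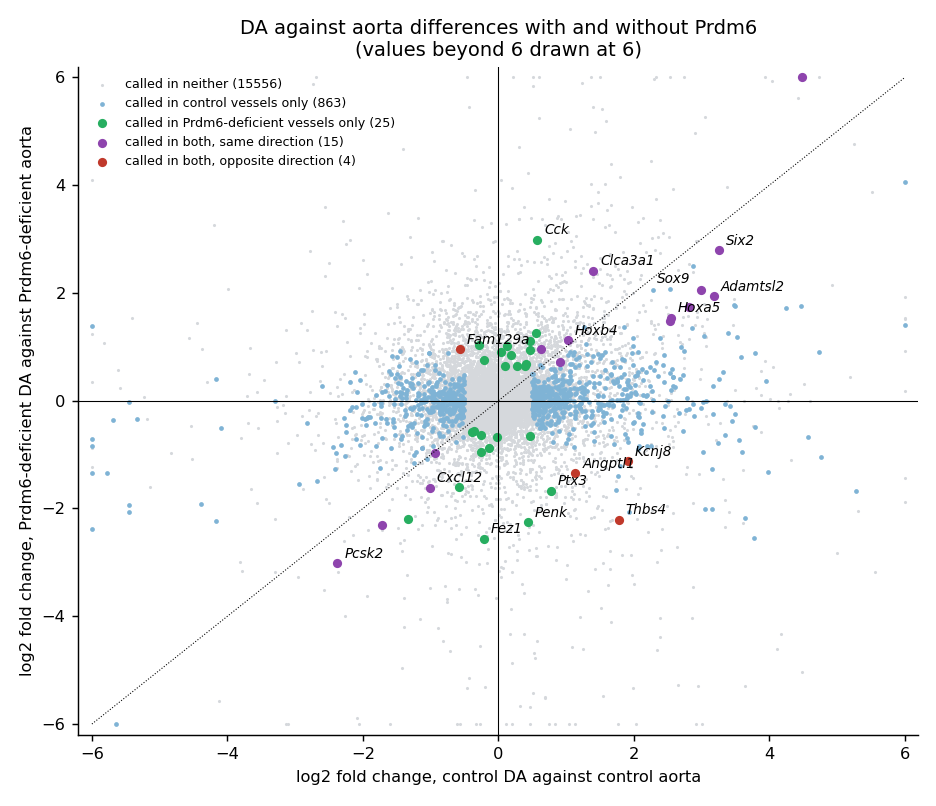
Log2 fold change of DA against aorta for the 16463 tested genes, with control vessels on the horizontal axis and Prdm6-deficient vessels on the vertical axis, and colours for the comparison in which a gene was called. The 863 genes called in control vessels only lie mostly in a horizontal band around 0 on the vertical axis. The 15 genes called in both in the same direction lie in the quadrants of like sign, on either side of the dotted line of equal change. The 4 called in opposite directions lie in the other quadrants.

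The tissue difference itself differed between genotypes for 436 genes (2.65%; interaction term, edgeR adjusted p below 0.01), of which 157 had a difference that was more positive in deficient vessels and 279 one that was more negative. Of the 882 genes called in control vessels, 353 (40.0%) passed this test, and in 347 of these the fold change was smaller in deficient vessels. Both contrasts use the control libraries, so the share passing is not independent of the choice. The control calls come from the fit over all 23 libraries, in which the deficient libraries share the filter, the scaling and the estimate of spread, so the deficient values of these genes are given as a description. The 521 genes higher in control DA had a median log2 fold change of 1.06 in control vessels and of 0.07 in deficient vessels, with quartiles of -0.16 and 0.34. The 361 genes lower in control DA had medians of -0.94 and -0.06. At least 0.5 of the control log2 fold change, in the same direction, was seen in deficient vessels for 62 (11.9%) of the 521 genes and for 41 (11.4%) of the 361. For 515 control-called genes the difference was not called in deficient vessels and the interaction did not pass either, so it is not shown whether their difference changed.

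A total of 15 genes were called in the same direction with and without Prdm6, which is 34.1% of the 44 deficient calls and 1.70% of the 882 control calls. Of these, 11 were higher in the DA, namely Hoxb5os, Six2, Clca3a1, Sox9, Adamtsl2, Syt1, Hoxa5, Spon2, Hoxb4, Gm9844 and Fibin, and 4 were lower, namely Pcsk2, Elavl4, Cxcl12 and Brinp1. Cxcl12 was the single member of the 15 whose tissue difference differed between genotypes by the interaction test.

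**Figure D2:**
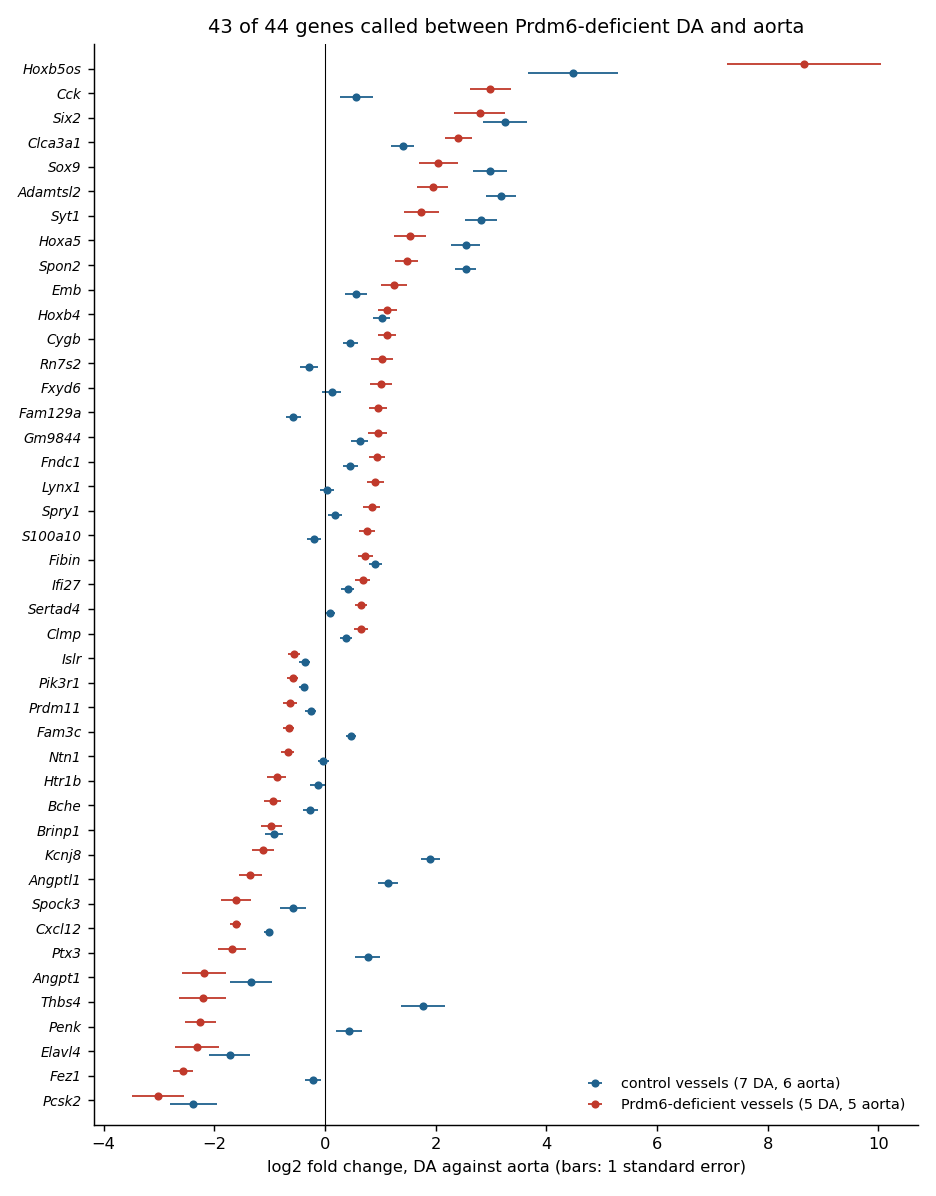
Log2 fold change of DA against aorta, with bars of 1 standard error, for 43 of the 44 genes called in Prdm6-deficient vessels (red), beside the same genes in control vessels (blue). Six2, Sox9, Hoxa5, Hoxb4, Cxcl12 and Pcsk2 lie on the same side of 0 in both genotypes, whereas Kcnj8, Angptl1, Thbs4 and Fam129a lie on opposite sides.

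Of the 11 retained genes that were higher in the DA, 4 encode transcription factors (Hoxa5, Hoxb4, Six2 and Sox9). Hoxa5 (ENSMUSG00000038253.6, chr6:52201754-52204587), a homeobox factor that patterns the neck and thorax, measured 23.6, 24.0, 40.2, 24.4 and 17.3 CPM in Prdm6-deficient DA and 11.3, 9.76, 7.204, 5.91 and 10.5 CPM in Prdm6-deficient aorta. Every DA library was above every aorta library, with a log2 fold change of 1.54 ± 0.28, edgeR adjusted p = 0.0053. In control vessels Hoxa5 ran from 43.3 to 99.6 with a median of 52.4 CPM in the DA and from 5.91 to 20.0 with a median of 8.89 CPM in the aorta, a log2 fold change of 2.55 ± 0.26, edgeR adjusted p = 7.6e-08. The interaction did not pass the test (edgeR adjusted p = 0.14), and the deficient call was present in 14 of 23 fits that left out 1 library each.

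Hoxb4 (chr11:96318267-96321638), another anterior homeobox factor, measured 29.4, 23.4, 29.7, 23.3 and 26.6 CPM in Prdm6-deficient DA and 11.3, 13.7, 11.3, 11.7 and 12.7 CPM in Prdm6-deficient aorta, again without overlap. Its log2 fold change was 1.13 ± 0.17, edgeR adjusted p = 0.0011 in deficient vessels and 1.02 ± 0.15, edgeR adjusted p = 2.4e-05 in control vessels, and the call was made in each of the 23 leave-one-out fits. Six2 (chr17:85684277-85688274), a homeobox factor of kidney and craniofacial progenitors, measured 3.55, 6.47, 7.06, 11.4 and 10.2 CPM in Prdm6-deficient DA and 1.01, 0.687, 1.43, 1.54 and 0.878 CPM in Prdm6-deficient aorta, compared with 16.3 to 40.3 with a median of 24.7 CPM in control DA. The tissue difference of Six2 was 2.80 ± 0.46, edgeR adjusted p = 0.0019 in deficient and 3.25 ± 0.40, edgeR adjusted p = 1.6e-06 in control vessels. Its level was lower in deficient than in control DA (log2 fold change -1.82 ± 0.40, edgeR adjusted p = 0.0025). The aorta had a change of -1.365 ± 0.44, edgeR adjusted p = 0.08, which did not pass. Sox9 (chr11:112782224-112787760), an HMG-box factor of cartilage and neural crest, had 7.23, 5.91, 3.34, 3.57 and 3.14 CPM in Prdm6-deficient DA, 0.901, 1.15, 1.02, 0.977 and 1.51 CPM in Prdm6-deficient aorta and 14.2 to 47.6 with a median of 29.8 CPM in control DA. Its tissue difference was 2.05 ± 0.35, edgeR adjusted p = 0.0028 in deficient and 2.985 ± 0.30, edgeR adjusted p = 7.2e-08 in control vessels. The interaction did not pass (edgeR adjusted p = 0.31), and the deficient call was present in 17 of the 23 leave-one-out fits. Sox9 was the single called member of the 7 tested chondrocyte markers (against 0.267% of all tested genes). These markers summed to 265.5 to 334 CPM in the DA and 251 to 422 CPM in the aorta of deficient embryos, with overlap, against 104 to 197 CPM in the DA and 266 to 376 CPM in the aorta of controls. Col2a1, the defining collagen of cartilage, stayed at or under 2.31 CPM in the 10 deficient libraries.

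Over the whole Hox list, 15 of 27 genes had enough counts to be tested, 2 were called in deficient vessels (against 0.267% of all tested genes), both higher in the DA, and 6 were called in control vessels, all higher. The median log2 fold change of the list was 0.76 in deficient vessels and 1.02 in control vessels, against medians of -0.00030 and -0.0050 over all tested genes. Hoxb3 (log2 fold change 0.85 ± 0.22, edgeR adjusted p = 0.058), Hoxb5 (2.49 ± 0.73, edgeR adjusted p = 0.12), Hoxa4 (0.76 ± 0.25, edgeR adjusted p = 0.2) and Hoxb2 (0.44 ± 0.16, edgeR adjusted p = 0.27) were called in control vessels and did not pass in deficient vessels, and none of them had an interaction that passed. By sign, 11 of the 15 tested Hox genes were higher and 4 lower in deficient DA, against 13 and 2 in control DA. Hoxd3 was among the 4, with a log2 fold change of -1.77 ± 0.54, edgeR adjusted p = 0.15 in deficient and 1.54 ± 0.48, edgeR adjusted p = 0.036 in control vessels and an interaction of -3.31 ± 0.72, edgeR adjusted p = 0.0048. Hoxb5os, annotated on the strand opposite to Hoxb5, had 0 counts in all 5 Prdm6-deficient aorta libraries and 4.36, 0.170, 2.25, 3.80 and 2.26 CPM in Prdm6-deficient DA, so that it was called (edgeR adjusted p = 0.0023) and was at least 17.8-fold higher in the DA when 3 counts per aorta library, averaged over the 5 libraries, are taken as the limit. No source says that strand was used in counting, so reads of Hoxb5 and Hoxb5os cannot be told apart where they overlap. The annotated span of Hoxb5 (chr11:96303336-96306121) lies inside that of Hoxb5os (chr11:96291024-96306910). Prdm6-deficient DA replicate 2 had 107 counts for Hoxb5 and 3 for Hoxb5os, and replicate 7 had 3 and 46.

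Other retained genes that were higher in the DA encode secreted, matrix or vesicle proteins. Clca3a1 (chr3:144729677-144760977), of the family of calcium-activated chloride channel regulators, measured 20.6, 21.1, 11.7, 18.1 and 22.97 CPM in Prdm6-deficient DA and 2.70, 3.80, 4.71, 3.21 and 3.27 CPM in Prdm6-deficient aorta, a log2 fold change of 2.41 ± 0.24, edgeR adjusted p = 1.6e-06 compared with 1.40 in control vessels. Adamtsl2, a matrix glycoprotein that binds fibrillin and latent TGF-beta complexes, measured 28.9, 29.7, 20.3, 31.1 and 16.3 CPM in Prdm6-deficient DA and 8.11, 6.74, 4.34, 6.24 and 7.37 CPM in Prdm6-deficient aorta (log2 fold change 1.94 ± 0.28, edgeR adjusted p = 6.2e-04). Spon2, a secreted protein of the spondin family, measured 17.3, 34.8, 23.7, 38.9 and 39.8 CPM and 10.7, 10.3, 11.5, 11.4 and 11.6 CPM in the same groups (log2 fold change 1.48 ± 0.21, edgeR adjusted p = 3.4e-04). All 3 genes separated the tissues completely, and Spon2 replicate 1 of the DA was the closest to the aorta. In control vessels Adamtsl2 and Spon2 differed by 3.18 and 2.54 on the log2 scale, and neither interaction passed (edgeR adjusted p = 0.05 and 0.017). Syt1, the calcium sensor of synaptic vesicles, had a log2 fold change of 1.74 ± 0.31, edgeR adjusted p = 0.0041, with 7.26 to 15.6 CPM in Prdm6-deficient DA and 2.02 to 4.82 CPM in Prdm6-deficient aorta. Fibin (log2 fold change 0.73 ± 0.13, edgeR adjusted p = 0.0053) and Gm9844 (0.95 ± 0.17, edgeR adjusted p = 0.0048) completed the group. Gm9844 is a predicted gene, and its count is reported as uncertain because reads shared with related loci were not examined.

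Cxcl12 (chr6:117168535-117181367), the chemokine that recruits cells bearing Cxcr4, gave the smallest p-value of the comparison. It measured 594, 549, 575, 554 and 563 CPM in Prdm6-deficient DA and 1729, 1814, 1870.0, 1632 and 1647 CPM in Prdm6-deficient aorta, so the aorta level was 3.07 times the DA level (log2 fold change -1.62 ± 0.09, edgeR adjusted p = 1.1e-11). Control DA (452 to 592 with a median of 505 CPM) overlapped the range of deficient DA, whereas all 6 control aorta libraries (827 to 1218 with a median of 1043 CPM) lay below the deficient aorta. The control difference was -1.01 ± 0.08, edgeR adjusted p = 1.5e-09, and the tissue difference was larger without Prdm6 (interaction -0.60 ± 0.12, edgeR adjusted p = 0.002). Cxcl12 was called in every fit that left out 1 library, and its log2 fold change was -1.62 within the first and -1.64 within the second series of animal numbers.

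The 3 other genes that stayed lower in the DA are best known from neurons and endocrine cells. Pcsk2, a convertase of prohormones, measured 2.49, 0.852, 0.825, 4.54 and 4.52 CPM in Prdm6-deficient DA and 27.3, 24.9, 21.2, 17.8 and 16.1 CPM in Prdm6-deficient aorta (log2 fold change -3.02 ± 0.48, edgeR adjusted p = 0.0013). Elavl4, an RNA-binding protein of neurons, measured 9.16, 4.60, 13.4, 7.07 and 3.63 CPM and 30.9, 17.5, 53.2, 35.1 and 51.5 CPM in the same groups (log2 fold change -2.31 ± 0.40, edgeR adjusted p = 0.0033). Brinp1 measured 12.3 to 22.6 CPM in Prdm6-deficient DA and 29.2 to 39.0 CPM in Prdm6-deficient aorta (log2 fold change -0.97 ± 0.19, edgeR adjusted p = 0.0076). None of these 3 genes overlapped between the tissues. Both Pcsk2 and Elavl4 were higher in deficient than in control aorta, by 2.66 and 3.01 on the log2 scale. Beside these values, the 10 tested neuron and chromaffin cell markers, which include Elavl4, summed to 162 to 203 CPM in the DA and 205 to 259 CPM in the aorta of deficient embryos, while the defining markers Th, Dbh and Phox2a had too few counts to be tested. Of these 10 markers, which also include Hand2, 1 (Elavl4) was called, against 0.267% of all tested genes. By sign, 5 were higher and 5 lower in deficient DA (median log2 fold change -0.03), so the sums do not stand for the whole list.

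**Figure D3:**
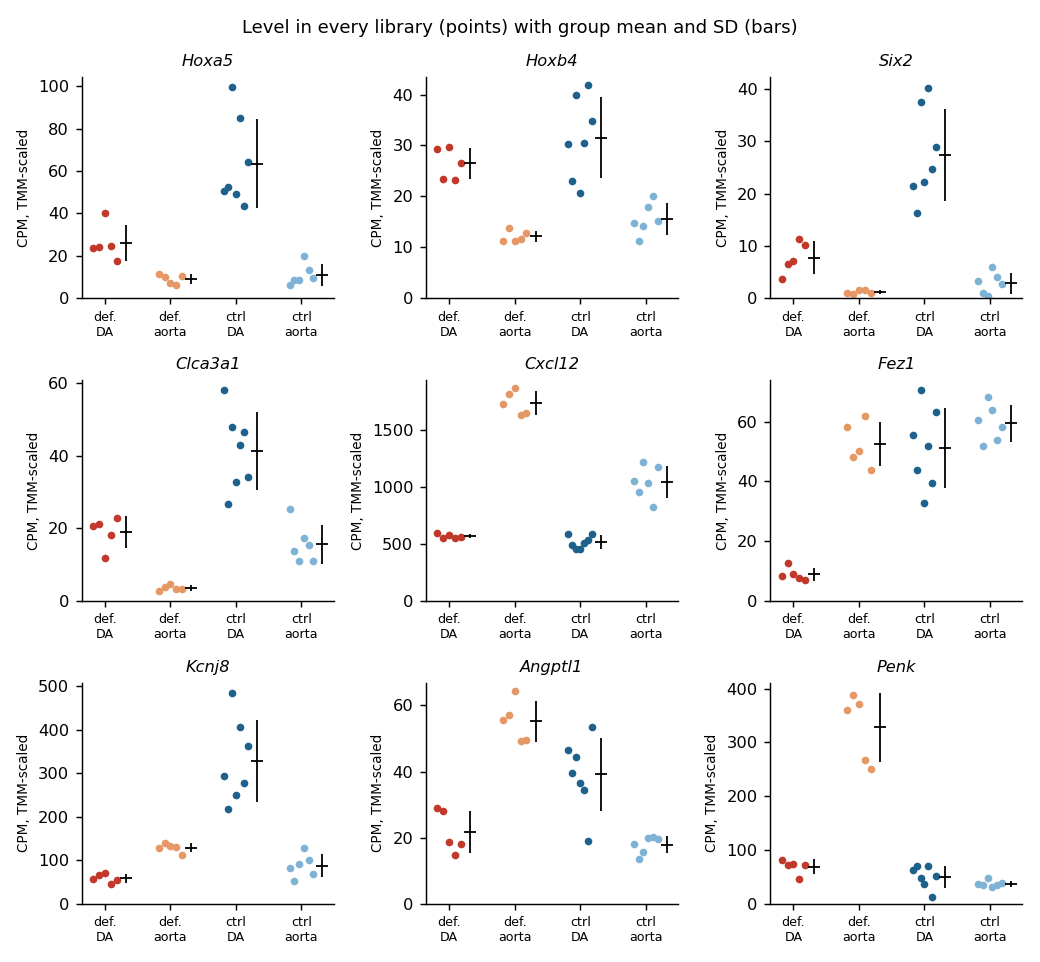
CPM in every library of the 4 groups for 9 genes called between Prdm6-deficient DA and aorta, with points for libraries and black bars for group means and SDs. Hoxa5, Hoxb4, Six2 and Clca3a1 were higher in the DA in both genotypes, Cxcl12 was lower in both, Fez1 was lower in the deficient DA, Kcnj8 and Angptl1 changed direction, and Penk was highest in the deficient aorta.

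Promoter sequences of the called genes are shown so that the retained genes can be read beside a contractile gene whose tissue difference was not called without Prdm6. Promoters run from 250 bases before to 50 bases after the RefSeq start on GRCm38.p6, 5′ to 3′, and 29 of the 44 called genes have at least 1, with 38 promoters among them. Capitals mark letters of the CArG box (CC, a run of A or T, then GG, the site of Srf), of AP-1 (TGANTCA) or of TEAD (GGAATG), searched on both strands, and no printed window holds more than 1 match. Myl9, a myosin light chain of smooth muscle, has a CArG box in its window. Elavl4 is the single called gene with a promoter that has one, in 2 overlapping windows of its 4, of which 1 is shown. Fez1 has a TEAD motif in 1 of its 3 windows, the one shown, and the Hoxa5, Hoxb4 and Cxcl12 windows hold none of the 3.
Myl9 (chr2:156775214-156775513, plus strand): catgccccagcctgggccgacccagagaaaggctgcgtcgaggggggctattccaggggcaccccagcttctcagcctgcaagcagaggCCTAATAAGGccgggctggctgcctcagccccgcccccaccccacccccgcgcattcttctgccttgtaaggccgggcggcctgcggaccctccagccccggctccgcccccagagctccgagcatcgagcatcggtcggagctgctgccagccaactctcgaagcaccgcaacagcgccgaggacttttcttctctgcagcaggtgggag
Elavl4 (chr4:110287462-110287761, minus strand): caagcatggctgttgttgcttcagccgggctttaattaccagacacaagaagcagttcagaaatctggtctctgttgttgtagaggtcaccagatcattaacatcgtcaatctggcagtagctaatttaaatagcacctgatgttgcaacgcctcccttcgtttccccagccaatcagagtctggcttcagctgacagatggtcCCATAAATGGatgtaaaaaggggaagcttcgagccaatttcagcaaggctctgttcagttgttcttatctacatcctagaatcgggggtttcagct
Fez1 (chr9:36821641-36821940, plus strand): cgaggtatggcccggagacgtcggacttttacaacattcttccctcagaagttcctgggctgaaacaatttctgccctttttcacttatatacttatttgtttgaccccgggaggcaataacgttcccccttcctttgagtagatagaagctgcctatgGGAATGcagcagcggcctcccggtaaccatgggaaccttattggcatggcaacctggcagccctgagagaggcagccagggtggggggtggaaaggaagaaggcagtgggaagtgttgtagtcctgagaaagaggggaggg
Hoxa5 (chr6:52204538-52204837, minus strand): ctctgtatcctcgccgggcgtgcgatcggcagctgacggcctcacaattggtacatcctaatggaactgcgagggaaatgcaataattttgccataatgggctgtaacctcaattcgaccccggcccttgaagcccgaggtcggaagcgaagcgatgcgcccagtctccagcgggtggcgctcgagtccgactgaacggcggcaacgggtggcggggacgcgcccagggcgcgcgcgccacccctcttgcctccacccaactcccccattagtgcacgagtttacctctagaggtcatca
Hoxb4 (chr11:96318017-96318316, plus strand): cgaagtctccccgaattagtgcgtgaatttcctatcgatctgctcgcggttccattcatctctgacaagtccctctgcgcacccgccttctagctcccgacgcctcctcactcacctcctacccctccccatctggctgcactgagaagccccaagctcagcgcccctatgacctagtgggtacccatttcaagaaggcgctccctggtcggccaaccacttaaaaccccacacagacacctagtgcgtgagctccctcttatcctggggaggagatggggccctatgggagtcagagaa
Cxcl12 (chr6:117168285-117168584, plus strand): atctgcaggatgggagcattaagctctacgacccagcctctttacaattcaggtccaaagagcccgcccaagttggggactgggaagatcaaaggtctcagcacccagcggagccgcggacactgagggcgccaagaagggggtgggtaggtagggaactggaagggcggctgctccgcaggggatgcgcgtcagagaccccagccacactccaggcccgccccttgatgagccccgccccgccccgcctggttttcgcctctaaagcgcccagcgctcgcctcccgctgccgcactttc
Counting a gene once where any of its promoters matched, a CArG box stood in the promoters of 1 of 29 called genes with a promoter (3.45%), of 5 of 26 contractile genes (19.2%) and of 1.81% of all 27025 genes with one. TEAD motifs were found for 5 of the 29 called genes (17.2%), 10 of the 26 contractile genes (38.5%) and 16.6% of all genes. The AP-1 motif was in none of the 29 and in 8.97% of all genes. Among the 11621 tested genes with a promoter, the shares were 1.65% for the CArG box, 14.8% for TEAD and 6.2% for AP-1. These shares describe letters in a short window and were not tested.

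A total of 4 genes were called in opposite directions with and without Prdm6, and all of them passed the interaction test. Kcnj8 (chr6:142564837-142571614), the pore subunit Kir6.1 of the vascular ATP-sensitive potassium channel, measured 57.5, 66.7, 71.5, 44.9 and 54.2 CPM in Prdm6-deficient DA and 127, 140.4, 132, 131 and 113 CPM in Prdm6-deficient aorta. Every deficient DA library lay below every deficient aorta library (log2 fold change -1.13 ± 0.20, edgeR adjusted p = 0.0036). In control vessels the order was the reverse, with 219 to 486 with a median of 295 CPM in the DA and 51.8 to 127 with a median of 87.8 CPM in the aorta (log2 fold change 1.91 ± 0.18, edgeR adjusted p = 1.8e-08). The difference between the tissue differences was -3.03 ± 0.27, edgeR adjusted p = 2.2e-07. Abcc9, which encodes the partner subunit of this channel, had a log2 fold change of -0.51 ± 0.16, edgeR adjusted p = 0.16 in deficient and -0.03 ± 0.14, edgeR adjusted p = 0.94 in control vessels, and neither passed.

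Angptl1, a secreted angiopoietin-like protein, measured 28.9, 28.0, 18.7, 14.7 and 18.2 CPM in Prdm6-deficient DA and 55.7, 57.2, 64.3, 49.4 and 49.7 CPM in Prdm6-deficient aorta, and 18.9 to 53.5 with a median of 39.5 CPM in the DA and 13.6 to 20.1 with a median of 18.8 CPM in the aorta of controls. Deficient DA was thus lower than deficient aorta (log2 fold change -1.35 ± 0.20, edgeR adjusted p = 8.4e-04), and control DA higher than control aorta (1.13 ± 0.18, edgeR adjusted p = 5.8e-05). Thbs4, a thrombospondin of tendon and vessel matrix, measured 8.35, 9.88, 10.03, 4.77 and 5.35 CPM in Prdm6-deficient DA and 44.5, 41.3, 29.2, 26.9 and 36.0 CPM in Prdm6-deficient aorta (log2 fold change -2.21 ± 0.42, edgeR adjusted p = 0.0069), against at most 2.70 CPM in control aorta. Both genes were higher in deficient than in control aorta, by 1.63 and 4.39 on the log2 scale. Fam129a, a gene induced by cell stress, moved the other way: it measured 129, 159, 112, 166 and 148 CPM in Prdm6-deficient DA and 87.2, 64.0, 54.5, 83.4 and 78.4 CPM in Prdm6-deficient aorta (log2 fold change 0.96 ± 0.16, edgeR adjusted p = 0.0019), and in controls it was lower in the DA than in the aorta (-0.57 ± 0.14, edgeR adjusted p = 0.005).

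A further 25 genes were called in Prdm6-deficient vessels and not in control vessels, and for 8 of them (Cck, Rn7s2, S100a10, Lynx1, Fez1, Penk, Ptx3 and Fam3c) the tissue difference differed between genotypes by the interaction test. Fez1 (chr9:36821864-36878924), an adaptor for kinesin transport along axons, measured 8.17, 12.6, 8.93, 7.76 and 6.92 CPM in Prdm6-deficient DA and 58.1, 48.2, 50.1, 61.9 and 43.9 CPM in Prdm6-deficient aorta, 5.91 times as much in the aorta (log2 fold change -2.56 ± 0.18, edgeR adjusted p = 8.3e-10). The other 3 groups overlapped one another, with 32.8 to 70.7 CPM in the DA and 52.0 to 68.3 CPM in the aorta of controls, so the deficient DA stood apart alone (interaction -2.34 ± 0.23, edgeR adjusted p = 7.4e-07). Penk, the precursor of enkephalins, showed the reverse arrangement, in which the deficient aorta stood apart: 360.4, 389, 371, 267 and 251 CPM there, 81.8, 72.3, 73.4, 45.5 and 71.1 CPM in Prdm6-deficient DA, 11.9 to 70.1 CPM in the DA and 31.8 to 47.7 CPM in the aorta of controls. The log2 fold change of Penk was -2.25 ± 0.27, edgeR adjusted p = 3.8e-05 in deficient vessels and 0.43 ± 0.24, edgeR adjusted p = 0.31 in control vessels. Ptx3, a secreted pentraxin of innate immunity, was also higher in the deficient aorta than in the deficient DA, with 37.7, 36.8, 44.1, 32.7 and 40.5 CPM in Prdm6-deficient aorta and 11.0, 10.9, 18.8, 9.60 and 9.82 CPM in Prdm6-deficient DA (log2 fold change -1.67 ± 0.25, edgeR adjusted p = 7.8e-04).

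Cck, the precursor of the peptide cholecystokinin, had the largest positive change after Hoxb5os among called genes that averaged 1 or more on the log2 CPM scale. It measured 10.9, 11.4, 9.30, 10.3 and 16.6 CPM in Prdm6-deficient DA and 1.80, 0.825, 1.48, 1.49 and 1.76 CPM in Prdm6-deficient aorta (log2 fold change 2.99 ± 0.37, edgeR adjusted p = 3.8e-05), while control DA ran from 3.34 to 15.5 with a median of 10.3 CPM and control aorta from 4.48 to 13.9 with a median of 5.63 CPM. The deficient aorta lay below every library of the other groups, and aorta differed between genotypes by -2.21 ± 0.35, edgeR adjusted p = 1.2e-04. S100a10, the binding partner of annexin A2, was higher in deficient DA than in deficient aorta (log2 fold change 0.75 ± 0.15, edgeR adjusted p = 0.0084), and its aorta difference between genotypes of -0.58 ± 0.14, edgeR adjusted p = 0.011 missed the threshold of 0.01. Lynx1, a modulator of nicotinic receptors, was also higher in deficient DA (0.91 ± 0.15, edgeR adjusted p = 0.0019), and it was lower in deficient than in control aorta (-0.93 ± 0.14, edgeR adjusted p = 9.9e-05). Fam3c, a secreted protein, was lower in deficient DA (-0.65 ± 0.10, edgeR adjusted p = 0.0013) and had a control difference of 0.47, below the limit of 0.5. Rn7s2, a copy of the signal recognition particle RNA, which has near-identical copies in the genome, is reported as uncertain (log2 fold change 1.03 ± 0.19, edgeR adjusted p = 0.0059).

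For the other 17 genes called in deficient vessels alone, the difference between genotypes did not pass, so that they are not shown to be particular to deficient vessels. Those higher in the DA included Emb (1.25), Cygb (1.12), Fxyd6 (1.01), Fndc1 (0.94), Spry1 (0.84), Ifi27 (0.68), Sertad4 (0.65) and Clmp (0.64), with log2 fold changes of DA against aorta in parentheses. They include Cygb, which encodes cytoglobin, Spry1, an inhibitor of receptor tyrosine kinase signalling, and Fxyd6, a regulator of the sodium pump. Cygb measured 84.8, 74.7, 75.2, 74.9 and 85.5 CPM in Prdm6-deficient DA and 36.2, 35.1, 39.4, 49.0 and 22.7 CPM in Prdm6-deficient aorta, and its control difference was 0.46 ± 0.14, edgeR adjusted p = 0.03. Those lower in the DA were Angpt1 (-2.19), Spock3 (-1.61), Bche (-0.95), Htr1b (-0.88), Ntn1 (-0.68), Prdm11 (-0.63), Pik3r1 (-0.58) and Islr (-0.56). Angpt1, the ligand that activates the endothelial receptor Tie2, measured 6.17, 12.7, 24.0, 20.2 and 13.2 CPM in Prdm6-deficient DA and 64.4, 58.3, 93.9, 69.4 and 62.1 CPM in Prdm6-deficient aorta (log2 fold change -2.19 ± 0.39, edgeR adjusted p = 0.004). It was at most 3.30 CPM in the DA and 8.25 CPM in the aorta of controls, below every deficient library of the same tissue, and its control difference was -1.34 ± 0.38, edgeR adjusted p = 0.018. Ntn1, the axon guidance molecule netrin 1, was the 1 called gene whose libraries overlapped, with 46.0 to 60.1 CPM in Prdm6-deficient DA and 57.8 to 102 CPM in Prdm6-deficient aorta.

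Of 32 contractile and cytoskeletal genes, 18 were higher and 2 lower in control DA (against 5.36% of all tested genes). In deficient vessels 0 of 32 were called, which by itself says little because 0.267% of all tested genes were called, and 2 of 32 had an unadjusted p below 0.05, against 10.05% of all tested genes. The list's median log2 fold change was 0.76 in control and 0.06 in deficient vessels, and 19 members passed the interaction test (against 2.65% of all tested genes). Myh11, the heavy chain of smooth muscle myosin, measured 576, 384, 677, 594 and 461 CPM in Prdm6-deficient DA and 556, 588, 433, 457 and 566 CPM in Prdm6-deficient aorta (log2 fold change 0.05 ± 0.20, edgeR adjusted p = 0.98), against 1416 to 2870.2 with a median of 1902 CPM in control DA. The deficient groups overlapped each other, and both lay within the range of control aorta (325 to 773 CPM). Des, which encodes the intermediate filament desmin, had the largest remaining value of the list, with 21.0, 35.7, 14.7, 17.6 and 53.0 CPM in Prdm6-deficient DA and 15.6, 18.2, 9.42, 16.2 and 17.3 CPM in Prdm6-deficient aorta (log2 fold change 0.89 ± 0.31, edgeR adjusted p = 0.23), compared with 3.79 in control vessels. Calponin gene Cnn1 (0.23 ± 0.14, edgeR adjusted p = 0.63), transgelin gene Tagln (-0.02 ± 0.12, edgeR adjusted p = 0.98) and Mylk, the myosin light chain kinase (-0.16 ± 0.16, edgeR adjusted p = 0.83), had smaller values. Acta2 (0.15 ± 0.12, edgeR adjusted p = 0.78) and Actg2 (0.28 ± 0.19, edgeR adjusted p = 0.71) encode near-identical actins, so reads may be divided between them. The interaction passed for Actg2, Cnn1, Tagln, Myh11 and Mylk and not for Acta2 (edgeR adjusted p = 0.23).

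**Figure D4:**
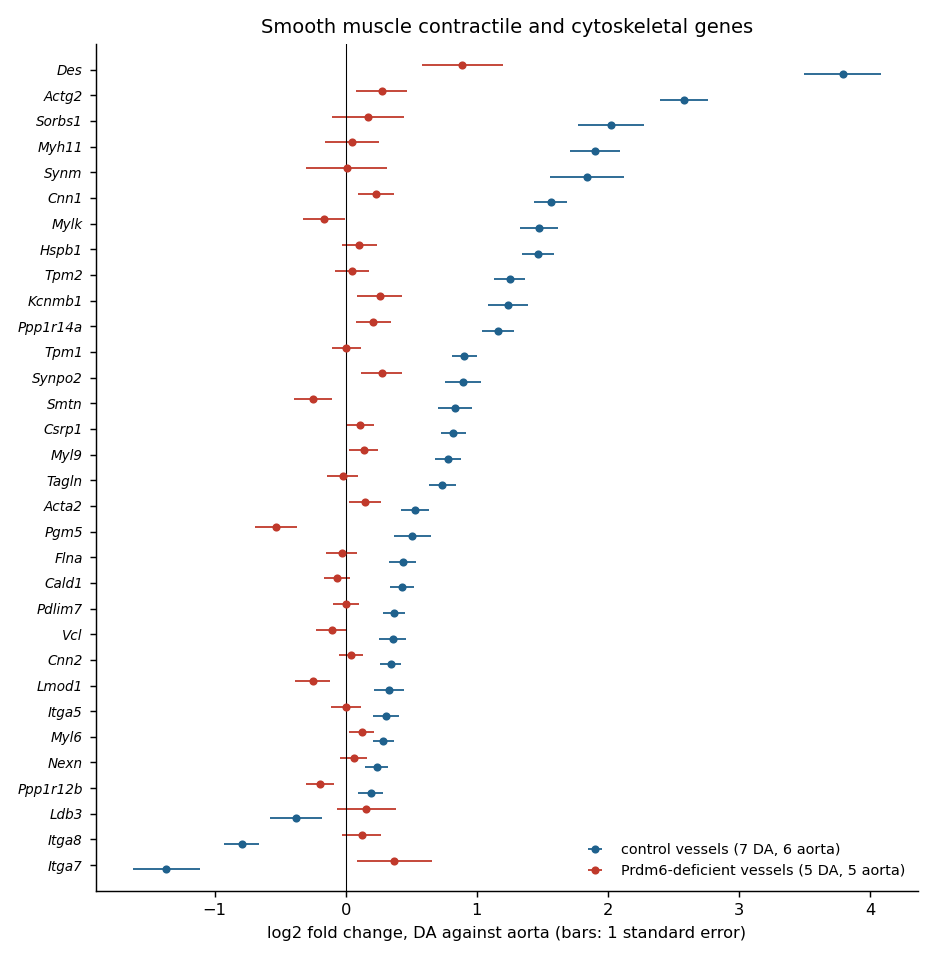
Log2 fold change of DA against aorta, with bars of 1 standard error, for 32 contractile and cytoskeletal genes in control vessels (blue) and Prdm6-deficient vessels (red). Control values run from -1.37 for Itga7 to 3.79 for Des, whereas the deficient values lie between -0.53 for Pgm5 and 0.89 for Des.

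Another 8 genes were chosen among those called in control vessels without overlap there, not called in deficient vessels and passing the interaction test. They had the largest control differences of that set at an average log2 CPM of 1 or more (Bdh1, Otogl, Des, Cpm, Grem1, Akap5, Adap1 and Grik2). The absence of a deficient call was thus part of the choice and is no result. Their deficient values lay on either side of 0. Otogl, a relative of the inner ear protein otogelin, and Adap1, a regulator of Arf6, had positive values that did not pass in deficient vessels. Adap1 measured 15.7, 15.5, 12.6, 12.9 and 12.6 CPM in Prdm6-deficient DA and 5.19, 7.61, 5.59, 7.91 and 4.20 CPM in Prdm6-deficient aorta (log2 fold change 1.18 ± 0.25, edgeR adjusted p = 0.017), with no overlap (as for 3.52% of all tested genes), and Otogl had a log2 fold change of 1.73 ± 0.43, edgeR adjusted p = 0.051. Grem1, a secreted inhibitor of BMPs, measured 0, 1.36, 0, 0.518 and 0.196 CPM in Prdm6-deficient DA and 1.64, 1.65, 2.59, 1.86 and 1.61 CPM in Prdm6-deficient aorta, against 18.8 to 45.6 with a median of 23.7 CPM in control DA. Its deficient difference of -2.19 ± 0.67, edgeR adjusted p = 0.15 did not pass, and the interaction did (-5.83 ± 0.85, edgeR adjusted p = 6.3e-05). Akap5, an anchor of protein kinase A (-0.72 in deficient and 3.56 in control vessels), Bdh1, an enzyme of ketone metabolism (-0.68 and 4.57), Cpm, a carboxypeptidase (-0.49 and 3.79), and Grik2, a kainate receptor subunit (-0.25 and 3.5), had no difference called in deficient vessels.

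Genes tied to DA patency and closure were examined as a separate list, in which 1 of 24 tested members was called in deficient vessels (Kcnj8, against 0.267% of all tested genes) and 9 were called in control vessels (against 5.36%). Ptger4, the prostaglandin E2 receptor EP4, measured 19.6, 26.1, 13.2, 31.1 and 21.1 CPM in Prdm6-deficient DA and 30.7, 31.0, 19.1, 25.3 and 23.3 CPM in Prdm6-deficient aorta, so the groups overlapped (log2 fold change -0.22 ± 0.24, edgeR adjusted p = 0.87), while control DA ran from 134 to 257 with a median of 164 CPM. Tfap2b, an AP-2 transcription factor required for closure, measured 3.18, 0, 2.38, 0.862 and 0.0491 CPM and 0.0530, 0, 1.99, 2.28 and 2.39 CPM in the same groups (log2 fold change -0.07 ± 0.86, edgeR adjusted p = 0.99), and its interaction did not pass (edgeR adjusted p = 0.076). Hand2, a basic helix-loop-helix factor, separated the deficient tissues completely, with 27.1, 39.2, 22.7, 24.7 and 41.7 CPM in the DA and 50.6, 72.3, 49.6, 63.8 and 43.0 CPM in the aorta, although its log2 fold change of -0.85 ± 0.28, edgeR adjusted p = 0.19 did not pass. Control values of Hand2 went the same way (-1.80 ± 0.25, edgeR adjusted p = 8.4e-06). Foxc1 (-0.20 ± 0.11, edgeR adjusted p = 0.55), Jag1 (-0.18 ± 0.13, edgeR adjusted p = 0.7), Notch3 (-0.20 ± 0.13, edgeR adjusted p = 0.68), Myocd (-0.40 ± 0.19, edgeR adjusted p = 0.48), Srf (-0.07 ± 0.13, edgeR adjusted p = 0.93), Ilk (-0.04 ± 0.07, edgeR adjusted p = 0.93) and Fbln1 (0.89 ± 0.25, edgeR adjusted p = 0.11) did not pass either. Fbln1, which encodes the matrix protein fibulin 1, was higher in all 5 deficient DA libraries (122 to 216 CPM) than in any deficient aorta library (78.7 to 119 CPM). Of all tested genes, 3.52% did not overlap between these libraries, so the separation of Hand2 and Fbln1 is given as a description only.

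Across the 24 function lists, 8 of 654 tested genes were called in deficient vessels (1.22%, against 0.267% of all tested genes), and 165 in control vessels (25.2%, against 5.36%). At the share over all genes, a list of 4 to 46 tested genes holds about no call, so a list with none is not a result about that list. This was so for 17 lists, namely contractile genes, Srf cofactors, prostaglandin genes, second heart field factors, calcium handling, contraction signalling, oxygen sensing, nitric oxide and cGMP, collagens, elastic fibres, Notch, TGF-beta and BMP, Wnt, retinoic acid, proliferation, flow-responsive genes and connexins. The other lists had the members Kcnj8 (patency and potassium channels, 1 of 24 and 1 of 33), Hoxa5 and Hoxb4 (2 of 15), Six2 and Sox9 (arch factors, 2 of 44), Thbs4 (matricellular and cushion matrix, 1 of 51), Ntn1 (guidance, 1 of 50) and Angpt1 (growth factors, 1 of 43). Of the 44 called genes, 36 were on no function list. Collagens were spread around a small positive median (0.26; 30 of 39 above 0), with Col14a1 at 0.87 ± 0.18, edgeR adjusted p = 0.015, and Wnt, growth factor and BMP genes had medians of -0.13, -0.08 and -0.02. Just outside the threshold were Aldh1a2, the enzyme that makes retinoic acid (3.26 ± 0.66, edgeR adjusted p = 0.011), and Thbs3 (0.59 ± 0.12, edgeR adjusted p = 0.011).

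Markers of other cell types were summed in every library, and no member of the 6 lists given here was called between deficient vessels. At the share of 0.267% over all tested genes, lists of 6 to 12 genes hold about no call. The absence of calls is therefore not a result about these cell types. The 7 mesothelial and epicardial markers summed to 242, 255 and 242 CPM in Prdm6-deficient DA replicates 2, 6 and 7, 41.9 and 9.80 CPM in replicates 1 and 5, and 12.2 to 44.9 CPM in Prdm6-deficient aorta, so the tissues overlapped. All 7 had a positive log2 fold change (median 2.65) and none was called, and Krt8 was at 0 in Prdm6-deficient DA replicate 5. In control vessels all 7 were positive too (median 1.5), so this direction is not particular to deficient vessels. Schwann cell and glial markers (10 genes) summed to 89.0 to 179 CPM in the DA and 25.5 to 105 CPM in the aorta, with 10 of 10 positive and 0 called. In control vessels 8 of these 10 were positive. Macrophage and leukocyte markers (12 genes) summed to 141 to 298 and 118 to 175 CPM, with 12 of 12 positive and 0 called, whereas in control vessels all 12 were negative. Adventitial fibroblast markers (9 genes) summed to 3045 to 3363 CPM in the DA and 2378 to 2979 CPM in the aorta of deficient embryos, without overlap. However, 5 of the 9 were positive and 4 negative (median log2 fold change 0.13) with 0 called, so the sum does not stand for every member. Lymphatic markers (6 genes) summed to 68.2 to 189 and 48.8 to 88.2 CPM, and vascular endothelial markers (12 genes) to 1338 to 1859.7 and 1359 to 1833 CPM.

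**Figure D5:**
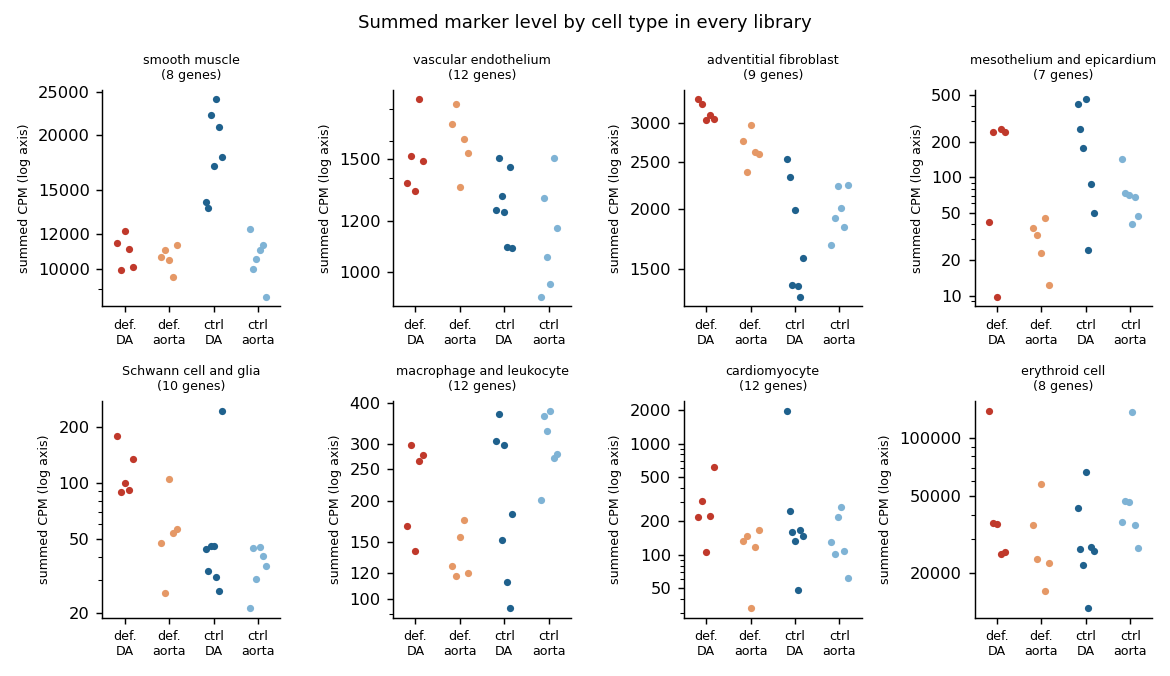
Summed CPM of marker genes by cell type (log axis) in every library of the 4 groups. Prdm6-deficient DA replicates 2, 6 and 7 form the upper mesothelial group at 242 to 255 CPM, smooth muscle sums of deficient DA overlap those of both aorta groups, and control DA lies above them.

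Without Prdm6-deficient DA replicates 2, 6 and 7, a choice made after the marker sums were seen, 6 genes were called, 5 of them among the 44. That fit compares 2 DA libraries with 5, and the part of the marker differences in the calls was not tested. Aldh1a2, which was not called, varied with the same libraries, at 3.55, 20.7, 2.75, 20.7 and 17.2 CPM in Prdm6-deficient DA and 1.75, 0.641, 1.02, 2.47 and 0.878 CPM in Prdm6-deficient aorta. The animal numbers in the labels fall into 2 ranges, which split the libraries into a first series (3 DA and 2 aorta of the 10) and a second series (2 and 3). Of the 44 genes, 43 had the same sign in both series, the other having no value in the second. The genes were called over these same libraries, and 43 of the 44 did not overlap between the tissues. Their sign within each series was thus largely fixed by the selection and is no separate support. Of the 44, 2 were called within the first series alone (88 genes were called within the second, 20 of them among the 44). Leaving out 1 library at a time gave 22 to 58 calls, and 17 of the 44 genes were called in all 23 such fits: Hoxb5os, Cck, Clca3a1, Adamtsl2, Spon2, Hoxb4, Cygb, Fndc1, Sertad4, Fam3c, Angptl1, Spock3, Cxcl12, Ptx3, Penk, Fez1 and Pcsk2. The calls of Clmp, S100a10, Islr and Brinp1 were the least stable, made in 7, 8, 8 and 11 of the 23 fits. The count of calls fell to 28 without Prdm6-deficient DA replicate 1, 25 without DA replicate 2, and 25, 22, 28 and 29 without Prdm6-deficient aorta replicates 1, 2, 4 and 5. Over the libraries of animals that gave both vessels, a fit with the animal as a block called 11 genes, and the same libraries without the block also gave 11.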

How the data were processed

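Total RNA of microdissected DA and ascending aorta was sequenced at low input with the NEBNext Ultra II kit. The authors filtered the paired-end reads, aligned them to mm10 with STAR and estimated counts per gene with RSEM, whose versions are not given in the sources used here, and deposited these expected counts without scaling. Expected counts were rounded, genes with low counts were removed (filterByExpr), and 16463 of 54752 genes were fitted with edgeR 4.0.16 in R 4.3.3 (TMM scaling, quasi-likelihood test), with 1 mean for each tissue and genotype over 23 libraries. A call needed an adjusted p under 0.01 and a log2 fold change larger than 0.5 in size, and the interaction needed the p alone. DESeq2 1.42.0 and limma 3.58.1 were alternatives. Libraries held 15163931 to 22610501 counts, and counting limits the values of low genes.

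Genes were named by rules on size, p, overlap and list membership, and the remaining called genes and those near the threshold were named after their values were seen. The groups compared, the members and the gene lists were chosen with earlier results of these data known. The scripts were tested on simulated data. The embryo numbers in the labels show that Prdm6-deficient DA replicate 2 (a pool) shares embryos with aorta replicates 1 and 2, DA replicate 5 with aorta replicate 3, and DA replicate 7 with aorta replicate 5. Deviations from the group means correlated at 0.0236 to 0.0949 over these 4 pairs, against -0.139 to 0.115 over the other 21. Promoters were read from RefSeq tables for GRCm38.p6. Genes withheld for evaluation entered the fit and the counts and are not reported here by name.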

Additional observations from a re-analysis of the deposited data

Results flagged for a closer look

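Among 73 sets of 5 libraries of 1 gene in Prdm6-deficient DA or aorta, 3 held a library set apart from the other 4 by more than Dixon's 95% limit, which chance alone passes in about 1 of 20 sets. These were Cck in Prdm6-deficient DA replicate 7 (16.64 CPM), Ptx3 in Prdm6-deficient DA replicate 5 (18.78 CPM) and Grem1 in Prdm6-deficient aorta replicate 3 (2.586 CPM).

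For 21 of 37 named genes the DA against aorta log2 difference differed between genotypes by the interaction term (edgeR adjusted p below 0.01), and the values here are the deficient difference minus the control difference. The difference was more positive in deficient vessels for Cck (2.421), Fam129a (1.528), Rn7s2 (1.317), S100a10 (0.9576) and Lynx1 (0.8741). It was more negative for Grem1 (-5.828), Bdh1 (-5.255), Cpm (-4.281), Akap5 (-4.278), Thbs4 (-3.985), Grik2 (-3.742), Kcnj8 (-3.032), Des (-2.9), Penk (-2.681), Otogl (-2.524), Angptl1 (-2.483), Ptx3 (-2.445), Fez1 (-2.344), Adap1 (-2.339), Fam3c (-1.121) and Cxcl12 (-0.6026). Several of these genes were chosen for a small interaction p, so the list describes them and is no separate test.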

How the results depend on the processing

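The deficient comparison called 44 genes, and the count moved beyond 1.5 times to 137 with DESeq2, 70 with the animal as a random block in limma-voom, 83 with the 10 deficient libraries fitted alone, 15 without the pooled libraries, 2 and 88 within the first and second animal series, and 6 without Prdm6-deficient DA replicates 2, 6 and 7. It was 149 at an adjusted p below 0.05 with no fold limit and 25 at a log2 fold change beyond 1. limma-voom called 65 genes, with 23 higher and 42 lower against 25 and 19. With the replicate number as a block it was 5, with the animal as a replicate block 11, and over the same libraries with no replicate block 11. The replicate numbers follow shared embryos only in part: of the 3 same-numbered deficient pairs, 1 (replicate 2) shares an embryo, and the 3 correlated at 0.0183 to 0.0300.

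The interaction count of 436 became 80 with the replicate number as a block, 238 with the animal as a replicate block and 236 over the same libraries with no replicate block. It was 206 without Prdm6-deficient DA replicates 2, 6 and 7, and 856 at an adjusted p below 0.05. The 15 control differences called again became 48 with DESeq2, 6 without the pooled libraries, 3 with the replicate number as a block, 4 with the animal as a replicate block, 3 over the same libraries with no replicate block, 3 without DA replicates 2, 6 and 7, and 63 at an adjusted p below 0.05. The cause of these shifts was not tested, apart from the fewer libraries in some fits.

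Leaving out 1 library at a time gave 22 to 58 deficient calls, 775 to 963 control calls, 361 to 506 interactions, 8 to 22 differences called again, and a Prdm6 log2 fold change of 0.0059 to 0.116. Over 934 combinations of 1 of 24 named genes with 1 alternative setting, the deficient difference kept its call in 736 and lost it in 198. Over 648 such combinations for 18 genes the interaction kept its call in 571, and 0 were reversed in either set. The genes were chosen from these same libraries, so the lack of reversals is no separate support.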

Other observations

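Among signalling genes, some missed the threshold of 0.01 in deficient vessels while their tissue difference differed between genotypes, and they are named here after their values were seen. Edn1, the vasoconstrictor endothelin 1, measured 33.2, 25.8, 26.4, 40.3 and 31.2 CPM in Prdm6-deficient DA and 49.2, 60.6, 48.9, 54.9 and 55.4 CPM in Prdm6-deficient aorta, without overlap (log2 fold change -0.78 ± 0.18, edgeR adjusted p = 0.035). In control vessels its difference had the opposite sign (1.0 ± 0.16, edgeR adjusted p = 8.3e-05), and the interaction was -1.78 ± 0.25, edgeR adjusted p = 3.4e-05. Nog, a secreted antagonist of BMPs, had log2 fold changes of -2.002 ± 0.47, edgeR adjusted p = 0.035 in deficient and 3.15 ± 0.44, edgeR adjusted p = 1.1e-05 in control vessels (interaction -5.15 ± 0.65, edgeR adjusted p = 1.2e-05). Gdf6, a BMP family ligand, had values of -1.28 ± 0.27, edgeR adjusted p = 0.016 and 0.85 ± 0.24, edgeR adjusted p = 0.017 (interaction -2.12 ± 0.36, edgeR adjusted p = 3.3e-04). All 3 had a negative value in deficient and a positive value in control vessels. None of the deficient differences passed, nor did the control difference of Gdf6.

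Tcf21, a transcription factor of epicardial derivatives and fibroblast progenitors, measured 47.1, 59.9, 20.9, 45.0 and 66.1 CPM in Prdm6-deficient DA and 7.79, 12.6, 3.56, 8.28 and 2.93 CPM in Prdm6-deficient aorta, also without overlap (log2 fold change 2.76 ± 0.58, edgeR adjusted p = 0.016). The control difference of Tcf21 went the same way (1.84 ± 0.52, edgeR adjusted p = 0.017). Of all tested genes, 3.52% did not overlap between the deficient tissues, so the separation of Edn1 and Tcf21 is no separate support. Npr1, the receptor of atrial natriuretic peptide, was near the limit of size in deficient vessels (-0.50 ± 0.11, edgeR adjusted p = 0.016) and was called in control vessels (-0.97 ± 0.09, edgeR adjusted p = 3.1e-08).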
